A study of Rattus norvegicus with 12 samples.

Results

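Macrophage genes, 10 in all, were followed through the prepubertal rat testis: Adgre1, Aif1, Tyrobp, Cd68, Cd163, Csf1r, Mrc1, Clec4a3, Casp1 and Lyz2. They were taken by name, as every probe set whose only gene symbol in the platform annotation was one of these 10. That gave 11 of the 31099 probe sets on the array, since Aif1 had a pair of them, and 10 of the 14217 genes with a probe set of their own. The tissue was whole testis of male Sprague-Dawley rats, frozen at postnatal day 34, and its RNA was read on 12 Affymetrix arrays in 4 groups of 3. All pups had received the casein AIN-93G diet during lactation, and the group diets ran from day 21 to day 33. One group stayed on casein AIN-93G (casein). Another received casein AIN-93G with 17beta estradiol infused under the skin by mini-osmotic pump at 10 µg per kg per day (casein with estradiol). The third was fed AIN-93G made with soy protein isolate, SPI, instead of casein (soy), and the fourth received the SPI diet with the same estradiol infusion (soy with estradiol). Whether animals without estradiol carried a pump, and whether an array held the RNA of 1 animal, was not given in the sources used here, so p-values measure only the spread between these samples.

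Testis macrophages live in the interstitium beside the Leydig cells and around the tubules that hold the stem cells of spermatogenesis. They are known for damping immune responses against germ cells, for exchanging signals with Leydig cells and for clearing dead cells, and their number grows toward puberty. They depend on signalling through the receptor Csf1r, whose ligands are Csf1 and Il34. Isoflavones, plant compounds that can bind estrogen receptors, are part of soy protein isolate and not of casein, a milk protein. In whole tissue, fewer cells of a type and less RNA per cell cannot be told apart.

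Values are log2 intensities after quantile normalization, so they have no zero, and a difference of 2 group means is a log2 fold change. Array medians lay between 6.72 and 6.79, and arrays of 1 group correlated at 0.988 to 0.997. Probe sets in the lowest 30% by mean, those under 5.69, were not tested, which left 21729. A probe set was called at a Benjamini-Hochberg adjusted p under 0.05 in limma, over those 21729. Of the 11 macrophage probe sets 10 passed this filter, and Cd163 did not. Casp1, with a mean of 5.78 over all arrays, passed only because its casein arrays were high. No background was measured, so a group mean near or under 5.69 may lie near background.

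Estradiol lowered 7 of the 10 tested macrophage probe sets on casein and 3 of the 10 on soy, and raised none. The 3 on soy were Adgre1 and both Aif1 probe sets, near the 24.3% of all tested probe sets called lower there. All 10 differences were negative on casein, with a median of −0.47 against 0.02 over all tested probe sets. On soy 5 were negative, with a median of −0.08 against −0.02. The soy diet alone lowered 3 and raised 1, with a median of −0.33 against −0.02. Casp1, which passed the filter only through its casein arrays, is among the 7 lowered on casein and the 3 lowered by soy. Changes were common on these arrays: estradiol called 41.8% of all tested probe sets on casein and 49.5% on soy, and soy called 9.73%. By direction, estradiol gave 19.9% lower and 21.9% higher on casein, and 24.3% lower and 25.3% higher on soy. Soy against casein gave 3.12% lower and 6.61% higher. The split of all calls moved with the scaling of the arrays: 52.5% of the calls with estradiol on casein were higher, and 40.9% after median centring, and for soy against casein 68% were higher, 49.5% on the deposited values and 36.7% after median centring. Wholly lower groups, with no overlap of 3 arrays and 3, were seen for 7 of the 10 on casein against 28% of all tested probe sets, and for 5 on soy against 29.4%. For soy against casein 6 lay wholly lower against 19.5%, and 1 wholly higher against 17.9%. These comparisons share their control arrays, so they are not independent of each other. The 10 genes were chosen with earlier results of these data known, so these counts and medians are a description and not a test. On soy the count of 3 fell to 1 without soy with estradiol replicate 1. For the diet the count of 4 fell to 2 without casein replicate 1 or soy replicate 3, and to 1 without casein replicate 3 or soy replicate 1. With a stricter filter, which left out 50% of all probe sets, only 4 macrophage probe sets were tested, and the counts were 3, 3 and 0.

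**Figure D1:**
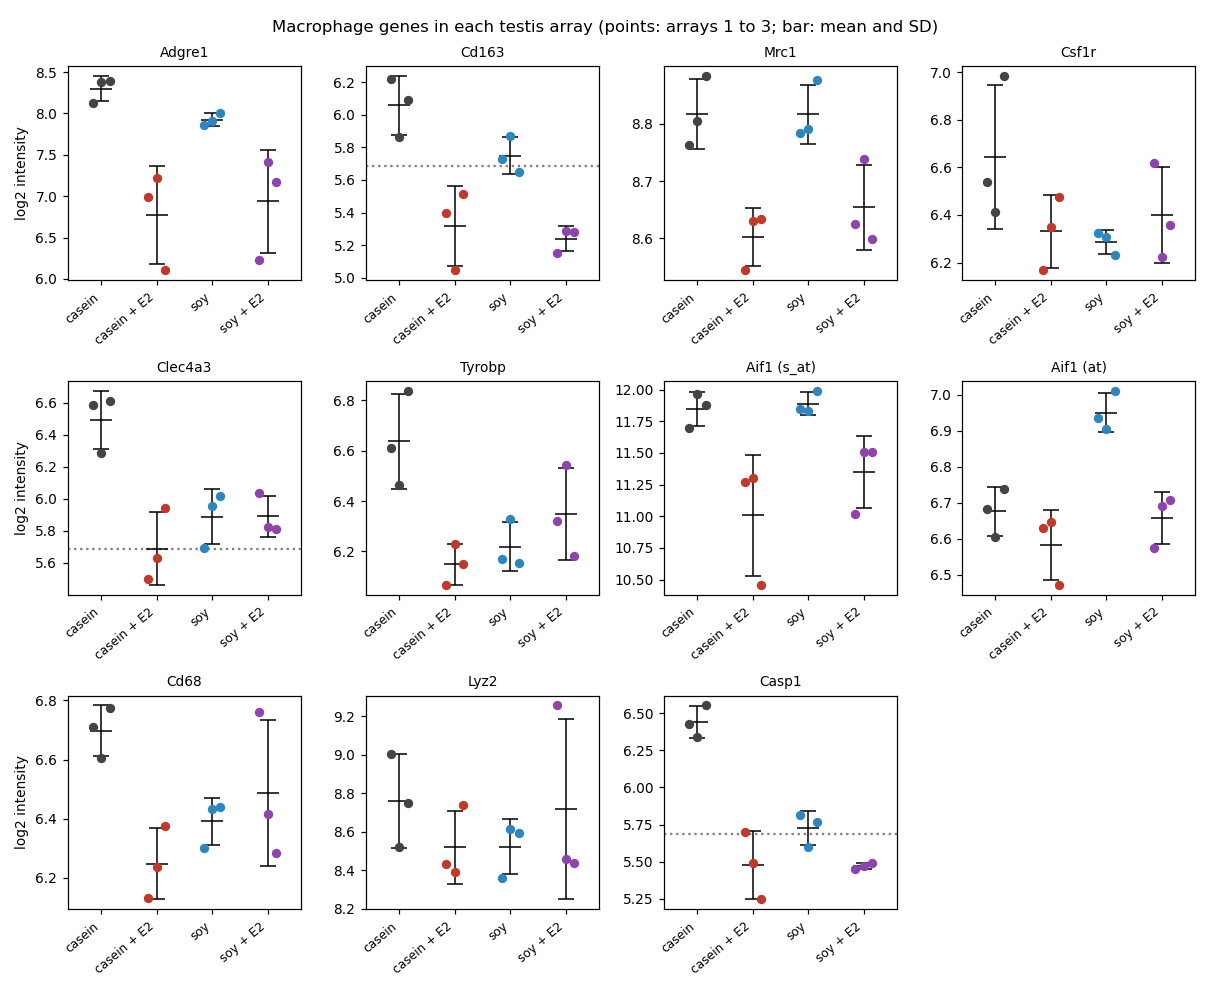
Quantile-normalized log2 intensity (vertical axes) of each of the 11 macrophage probe sets in the 12 arrays, by group (E2, estradiol), with points for arrays, bars for group mean and SD and a dotted line at the filter level of 5.69. Adgre1 and Aif1 (s_at) drop in both estradiol groups, while the estradiol differences of Clec4a3, Tyrobp, Cd68 and Casp1 were called on casein and missed the threshold on soy, Casp1 not in every alternative.

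Adgre1 is an adhesion receptor of the macrophage surface and showed the widest range of the 11 probe sets, 2.29 log2 from its lowest to its highest array. Its values were 8.13, 8.38 and 8.40 in casein, 6.99, 7.22 and 6.10 in casein with estradiol, 7.86, 7.91 and 8.01 in soy and 6.23, 7.41 and 7.17 in soy with estradiol. Both estradiol groups lay wholly under their controls, and their arrays spread far more widely than the controls did. Group means were 8.30 ± 0.15, 6.77 ± 0.59, 7.93 ± 0.08 and 6.94 ± 0.62 in that order (SD, n = 3). On casein Adgre1 fell by 1.53 log2 with estradiol (SE 0.29, 95% interval −2.16 to −0.90, adjusted p = 0.00156), which is 2.89-fold. On soy the difference was −0.99 (−1.62 to −0.36, adjusted p = 0.0140). Without soy with estradiol replicate 1, the lowest array of its group, it was −0.64 and missed the threshold at an adjusted p of 0.0501. Soy alone gave −0.38 (SE 0.29, adjusted p = 0.483), although the casein and soy arrays did not overlap.

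Cd163, the scavenger receptor that takes up hemoglobin with haptoglobin and marks tissue-resident macrophages, was the member under the filter. It read 6.22, 5.87 and 6.09 in casein, 5.40, 5.05 and 5.52 in casein with estradiol, 5.73, 5.87 and 5.65 in soy and 5.15, 5.29 and 5.28 in soy with estradiol. Every array with estradiol lay under every array without it, and the group means with estradiol lay under the filter level. The differences were −0.74 on casein, −0.51 on soy and −0.31 for soy against casein. When the filter was lifted their adjusted p-values were 0.000708, 0.00552 and 0.138.

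Mrc1, the mannose receptor of resident macrophages, changed by far less. Its values were 8.76, 8.81 and 8.88 in casein, 8.54, 8.63 and 8.63 in casein with estradiol, 8.78, 8.79 and 8.88 in soy and 8.63, 8.74 and 8.60 in soy with estradiol. The estradiol arrays lay under their controls on both diets, by small steps. Mrc1 fell by 0.21 on casein (adjusted p = 0.0234), no longer called without casein replicate 2 (0.0551), casein replicate 3 (0.0927) or casein with estradiol replicate 1 (0.0915). On soy the difference was −0.16 and missed the threshold (adjusted p = 0.0629). It passed without soy with estradiol replicate 2 (0.0239). Casein and soy means were both 8.82, and the interval of their difference ran from −0.15 to 0.15.

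Csf1r, the receptor for Csf1 and Il34, had no called difference. It read 6.54, 6.41 and 6.98 in casein, 6.17, 6.35 and 6.47 in casein with estradiol, 6.32, 6.31 and 6.23 in soy and 6.62, 6.22 and 6.36 in soy with estradiol. The casein group was the highest and the most spread, and it lay wholly over soy but overlapped casein with estradiol. The estradiol difference was −0.31 on casein (−0.62 to −0.01, adjusted p = 0.0911) and 0.11 on soy (−0.19 to 0.42, adjusted p = 0.521). Soy against casein gave −0.36 (−0.66 to −0.05, adjusted p = 0.132). Without casein replicate 2 the difference on casein was −0.43 and was called (adjusted p = 0.0413).

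The ligands of Csf1r moved in opposite directions with estradiol on casein, and both fell on soy. Csf1, the growth factor of the macrophage lineage, read 8.90, 8.78 and 8.71 in casein, 9.12, 9.07 and 9.20 in casein with estradiol, 9.38, 9.24 and 9.65 in soy and 9.05, 9.09 and 9.14 in soy with estradiol. It was lowest in casein and highest in soy, and both estradiol groups lay between them without overlapping either. Soy raised Csf1 by 0.63 (adjusted p = 0.00245), which held in every alternative run. Estradiol raised it by 0.33 on casein (adjusted p = 0.0159) and it fell by 0.33 on soy (adjusted p = 0.0143). The rise was no longer called without casein replicate 3 (0.0675) or casein with estradiol replicate 3 (0.0620) and after median centring (0.0584). The fall on soy was no longer called without soy replicate 3 (0.0653). Il34, the other ligand, read 9.55, 9.62 and 9.76 in casein, 8.81, 9.06 and 8.52 in casein with estradiol, 9.35, 9.40 and 9.46 in soy and 8.40, 9.23 and 8.94 in soy with estradiol. It fell by 0.85 with estradiol on casein (adjusted p = 0.00267) and by 0.55 on soy (adjusted p = 0.0226), and the estradiol arrays lay under their controls. The fall on soy was no longer called without soy replicate 2 (0.0505), soy replicate 3 (0.0688) or soy with estradiol replicate 1 (−0.32, 0.0790). Over all tested probe sets 21.9% rose and 19.9% fell with estradiol on casein, and 25.3% rose and 24.3% fell on soy. Of the 7 tested genes of the list that holds these ligands, receptors of related cytokines and myeloid transcription factors, 1 rose and 1 fell on casein, and 1 rose and 2 fell on soy. The gene that rose on soy was Csf2ra, a chain of the receptor for granulocyte-macrophage colony-stimulating factor, by 0.30 (adjusted p = 0.00935).

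**Figure D2:**
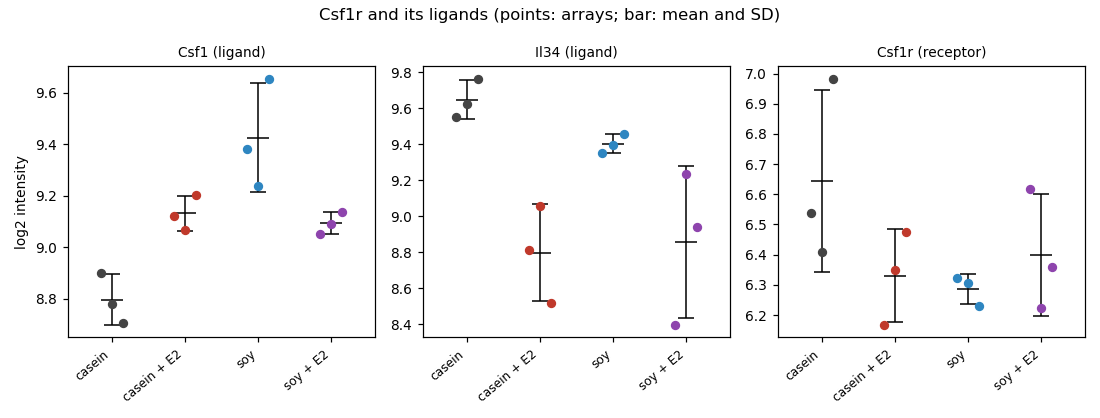
Quantile-normalized log2 intensity (vertical axes) of Csf1r and its ligands Csf1 and Il34 in the 12 arrays by group (E2, estradiol), points for arrays and bars for mean and SD. Csf1 is lowest in casein and highest in soy, Il34 is lower in both estradiol groups, and the Csf1r groups overlap more.

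Clec4a3, a C-type lectin receptor of myeloid cells, was highest in the casein group. It has close relatives in the same gene cluster, so its probe set may read more than 1 of them. It read 6.59, 6.29 and 6.61 in casein, 5.50, 5.63 and 5.94 in casein with estradiol, 5.69, 5.95 and 6.02 in soy and 6.04, 5.82 and 5.81 in soy with estradiol. The casein arrays lay over all 9 others, which overlapped each other and lay near the filter level, with means of 6.49 ± 0.18 in casein and 5.69 ± 0.23, 5.89 ± 0.17 and 5.89 ± 0.13 in the others (SD, n = 3). Clec4a3 fell by 0.81 with estradiol on casein (adjusted p = 0.000648), or 1.75-fold, and its difference on soy was 0.00 (−0.28 to 0.28, adjusted p = 0.988). Soy against casein gave −0.61 (−0.89 to −0.33, adjusted p = 0.0122), no longer called without casein replicate 3 (0.0587) or soy replicate 1 (0.0578).

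Tyrobp, also named DAP12, is the adaptor that passes on the signal of several activating receptors of myeloid cells, Trem2 among them. It read 6.61, 6.46 and 6.84 in casein, 6.07, 6.23 and 6.15 in casein with estradiol, 6.17, 6.33 and 6.16 in soy and 6.32, 6.54 and 6.18 in soy with estradiol. Casein lay wholly over casein with estradiol and over soy, and its lowest array was under 1 array of soy with estradiol. Group means were 6.64 ± 0.19, 6.15 ± 0.08, 6.22 ± 0.10 and 6.35 ± 0.18 (SD, n = 3). Tyrobp fell by 0.49 with estradiol on casein (adjusted p = 0.00403), or 1.40-fold, and on soy the difference was 0.13 (−0.11 to 0.37, adjusted p = 0.340). Soy against casein gave −0.42 (adjusted p = 0.0314), no longer called without casein replicate 1 (0.0693), casein replicate 3 (0.129), soy replicate 1 (0.105) or soy replicate 3 (0.110).

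The genes around Tyrobp did not move as 1 block. Of 15 receptors, integrins and kinases of its pathway 13 had a probe set and 8 were tested. On casein 1 rose and 3 fell with estradiol, and on soy 0 rose and 3 fell. Among all tested probe sets 21.9% rose and 19.9% fell on casein, and 25.3% rose and 24.3% fell on soy. Lyn, a Src family kinase, fell by 0.68 on casein (adjusted p = 0.000255) and by 0.75 on soy (adjusted p = 0.000127). Trem2, a lipid-sensing receptor that signals through Tyrobp, fell by 0.28 on casein (adjusted p = 0.0127) and by 0.35 on soy (adjusted p = 0.00357). The first of these was no longer called without casein with estradiol replicate 3 (0.0679). Fcer1g, an adaptor of the same kind, fell by 0.30 on casein at an adjusted p of 0.0494, and leaving out any of 9 single arrays took it to between 0.0543 and 0.197. Sirpa, an inhibitory receptor, rose by 0.21 on casein (adjusted p = 0.0304), fell by 0.30 on soy (adjusted p = 0.00427) and was higher on soy than on casein by 0.42 (adjusted p = 0.00358). Its rise on casein was no longer called without casein replicate 1, 2 or 3 or casein with estradiol replicate 1 or 3, at adjusted p from 0.0611 to 0.126. The count of 4 on casein fell to 2 without casein replicate 1, casein replicate 3 or casein with estradiol replicate 1, and to 1 without casein with estradiol replicate 3.

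Aif1, or Iba1, is an actin-binding protein of macrophages and microglia. Its 2 probe sets, named here by their suffixes s_at and at, did not give the same picture. Aif1 (s_at) had the highest mean of the macrophage probe sets, 11.52 over all arrays, at percentile 97.4 of all probe sets. Aif1 (at) had a mean of 6.72, at percentile 49.3. The probe set Aif1 (s_at), whose suffix marks probes that can bind several transcripts, read 11.70, 11.96 and 11.88 in casein, 11.27, 11.30 and 10.46 in casein with estradiol, 11.84, 11.83 and 11.99 in soy and 11.02, 11.51 and 11.51 in soy with estradiol. Both estradiol groups lay under their controls. Replicate 3 was the lowest array of casein with estradiol, and replicate 1 that of soy with estradiol. It fell by 0.84 on casein (adjusted p = 0.00499), or 1.78-fold, and the difference on soy was −0.54 (adjusted p = 0.0352). On soy it was no longer called without soy replicate 1 (0.0679), 2 (0.0614) or 3 (0.109), or soy with estradiol replicate 1 (−0.38, 0.135). Soy against casein gave 0.04 (adjusted p = 0.931).

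Aif1 (at) read 6.68, 6.61 and 6.74 in casein, 6.63, 6.65 and 6.47 in casein with estradiol, 6.94, 6.90 and 7.01 in soy and 6.58, 6.69 and 6.71 in soy with estradiol. Here soy was the group that stood over the other 3, and casein overlapped both estradiol groups. The estradiol difference was −0.09 on casein (adjusted p = 0.323), while on soy this probe set fell by 0.29 (adjusted p = 0.00600). It was the macrophage probe set called higher on soy, by 0.27 (adjusted p = 0.0330). It was no longer called without casein replicate 1 (0.0741), 2 (0.111) or 3 (0.0586), soy replicate 1 (0.0836) or soy replicate 3 (0.116). In neither Aif1 probe set did casein have the highest mean, as it had in the other 9 macrophage probe sets.

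Cd68, a glycoprotein of the late endosome and lysosome of macrophages, was highest in casein. It read 6.71, 6.61 and 6.78 in casein, 6.13, 6.24 and 6.37 in casein with estradiol, 6.30, 6.43 and 6.44 in soy and 6.76, 6.41 and 6.28 in soy with estradiol. Casein lay over casein with estradiol and over soy, and soy with estradiol replicate 1 was as high as the casein arrays. Its group means were 6.70 ± 0.09, 6.25 ± 0.12, 6.39 ± 0.08 and 6.49 ± 0.25 (SD, n = 3). Cd68 fell by 0.45 with estradiol on casein (adjusted p = 0.00690), or 1.37-fold, and its difference on soy was 0.10 (−0.15 to 0.34, adjusted p = 0.490). Soy against casein gave −0.31 (adjusted p = 0.104), which was called without soy with estradiol replicate 1 (0.0333).

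Lyz2, the lysozyme of macrophages, had no called difference, and its near-identical copy Lyz1 can share its probes. It read 9.01, 8.52 and 8.75 in casein, 8.43, 8.39 and 8.74 in casein with estradiol, 8.36, 8.61 and 8.59 in soy and 9.26, 8.46 and 8.43 in soy with estradiol. The 4 groups overlapped, and the highest array was soy with estradiol replicate 1. The differences were −0.24 for estradiol on casein (adjusted p = 0.351), 0.19 on soy (adjusted p = 0.428) and −0.24 for soy against casein (adjusted p = 0.523). In soy with estradiol replicate 1 the mean of 9 pan-leukocyte genes was 7.45, against 6.57 to 7.05 in the other 11 arrays. Cd52 (8.95) and Lcp1 (8.28) were highest there, as were Cd53, Coro1a, Cd48 and Rac2 by smaller steps. Laptm5 (7.52) and Arhgdib (7.35) lay within the range of the other arrays. Cd52 also varied widely elsewhere, from 4.43 to 8.43. The part of the pan-leukocyte genes in the high Lyz2 and Cd68 of that array was not tested.

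Other lysosomal genes had calls in both directions. Of 13 tested enzymes and membrane proteins of the lysosome, 4 rose and 1 fell with estradiol on casein, and 5 rose and 1 fell on soy. Over all tested probe sets 21.9% rose and 19.9% fell on casein, and 25.3% rose and 24.3% fell on soy. Ctsh, a cathepsin, fell by 0.70 on casein (adjusted p = 0.00323) and by 0.77 on soy (adjusted p = 0.00151). Psap, the precursor of the saposins, rose by 0.55 on casein (adjusted p = 0.00999) and by 0.52 on soy (adjusted p = 0.0118), and the first was no longer called without casein with estradiol replicate 3 (0.0501). Npc2, a cholesterol carrier, rose by 0.75 on soy (adjusted p = 0.000461), and Lamp2, a membrane protein, rose by 0.49 (adjusted p = 0.00326). On casein their means also went up with estradiol, from 11.56 to 11.95 for Npc2 and from 10.62 to 10.92 for Lamp2. Their interactions were not called (adjusted p = 0.236 and 0.520 in limma). The count of 5 on casein was 3 without casein replicate 2 or casein with estradiol replicate 1, 2 without casein replicate 3 and 1 without casein with estradiol replicate 3. Most of these genes are active in many cell types.

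Casp1, the protease that inflammasomes activate to mature interleukin 1 beta, showed the smallest adjusted p of the macrophage probe sets. It read 6.43, 6.34 and 6.55 in casein, 5.70, 5.49 and 5.25 in casein with estradiol, 5.81, 5.60 and 5.77 in soy and 5.45, 5.47 and 5.49 in soy with estradiol. Casein stood over all 9 other arrays. Casp1 fell by 0.96 with estradiol on casein (−1.19 to −0.73, adjusted p = 7.34e-05), or 1.95-fold, and it was 1.64-fold lower on soy than on casein (−0.71, adjusted p = 0.00192). Both calls held without any single array. On soy estradiol gave −0.26 (−0.49 to −0.03, adjusted p = 0.0610), which was called on the deposited values (−0.32, 0.0299) and after median centring (−0.33, 0.0234). It was also called without casein with estradiol replicate 1 (0.0369) or 3 (0.0307), or soy replicate 2 (0.0439). The means with estradiol, 5.48 ± 0.23 and 5.47 ± 0.02 (SD, n = 3), lay under the filter level, against 6.44 ± 0.11 in casein and 5.73 ± 0.11 in soy. The casein group alone lifted the mean over all arrays, 5.78, past the filter. Calls of Casp1 against casein are thus not independent of its being tested.

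The genes that work with Casp1 were read only in part. Of 14 listed genes of the inflammasome and the interleukin 1 family, 9 had a probe set and 7 were tested. Nlrp3, Nlrp1a, Nlrc4, Aim2 and Gsdmd were not among the tested. Of the 7, 1 fell with estradiol on casein, 1 rose on soy and 1 was higher on soy than on casein. Among all tested probe sets these shares were 19.9%, 25.3% and 6.61%. Casp4, the caspase of the noncanonical inflammasome, fell by 0.24 on casein (adjusted p = 0.0187), no longer called without casein with estradiol replicate 1 or 3 or casein replicate 2. Il1a rose by 0.33 with estradiol on soy (adjusted p = 0.0160), no longer called without replicate 1 of soy or of soy with estradiol. Il1rn, the interleukin 1 receptor antagonist, was higher on soy by 0.36 (adjusted p = 0.0219), no longer called without casein replicate 1 or 3 or soy replicate 1 or 3.

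Casp1, Clec4a3 and Cd68 each fell with estradiol on casein in every alternative that tested them and missed the threshold on soy, Casp1 with the exceptions given above, so the 250 bases before their listed transcript starts are shown, from RefSeq on GRCr8. The promoter table held 8 of the 10 genes, and Tyrobp and Aif1 were not among them. The window of Casp1 is chr8:10872580-10872829 on the plus strand, that of Clec4a3 is chr4:157886508-157886757 on the plus strand, and that of Cd68 is chr10:54882442-54882691 on the minus strand. RefSeq's gene records of Casp1 and Clec4a3 begin further upstream, so these windows lie inside the annotated gene and belong to 1 of its transcript starts, while that of Cd68 ends where its gene record begins. Each is written 5′ to 3′ on the strand of the gene, and capitals mark AGGAAGT, the short core bound by the myeloid factor PU.1.
Casp1: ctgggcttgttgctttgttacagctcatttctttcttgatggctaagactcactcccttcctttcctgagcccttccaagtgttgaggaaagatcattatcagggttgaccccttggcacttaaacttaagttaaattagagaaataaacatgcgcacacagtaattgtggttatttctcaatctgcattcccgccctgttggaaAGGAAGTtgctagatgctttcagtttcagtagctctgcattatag
Clec4a3: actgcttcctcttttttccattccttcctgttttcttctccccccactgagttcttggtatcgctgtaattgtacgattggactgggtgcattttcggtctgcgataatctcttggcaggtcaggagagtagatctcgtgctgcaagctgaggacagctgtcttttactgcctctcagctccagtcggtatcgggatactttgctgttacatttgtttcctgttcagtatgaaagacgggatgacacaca
Cd68: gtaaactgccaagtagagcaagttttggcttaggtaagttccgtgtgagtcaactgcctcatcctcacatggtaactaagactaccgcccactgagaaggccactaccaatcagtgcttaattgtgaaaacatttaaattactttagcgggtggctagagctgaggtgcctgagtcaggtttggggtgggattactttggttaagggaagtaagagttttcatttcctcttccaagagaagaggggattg
On both strands of the 300-base table windows, AGGAAGT stood in 3 of the 8 macrophage promoters (Casp1, Mrc1 and Lyz2) and in 8.41% of 33469 promoters. The longer form GAGGAAGT, which contains it, stood in 0 of the 8 and in 2.42% of all. A match is a run of letters and not a shown binding site.

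The estradiol differences on the diets were called as unequal for 3 of these genes. The interaction, which is the estradiol difference on soy minus that on casein, was called for Clec4a3 (0.81, 0.41 to 1.21, adjusted p = 0.0376), Casp1 (0.70, 0.38 to 1.03, adjusted p = 0.0317) and Tyrobp (0.62, 0.28 to 0.95, adjusted p = 0.0493). Across all tested probe sets 3.41% were called, 1.12% in this direction, and of all calls 32.9% were in this direction, 45% on the deposited values and 58.9% after median centring. Casp1 passed the filter only through its casein arrays, which enter the interaction, so this call is not independent of its being tested. For Casp1 both estradiol means (5.48 and 5.47) lay under the filter level of 5.69 and the soy mean (5.73) just over it. For Clec4a3 the means outside casein were 5.69 to 5.89. Cd163 had a mean of 5.75 in soy and 5.24 in soy with estradiol, but another probe set does not give the background of these. No background was measured, and whether a floor had a part in the interaction was not tested. These 3 calls depended on single arrays: 0 were left without casein replicate 1, casein replicate 3, casein with estradiol replicate 2, soy replicate 1 or soy replicate 3. Only 1 call was left without casein with estradiol replicate 1 or 3 or soy with estradiol replicate 1. For Casp1 the call failed without casein replicate 1 or 3, casein with estradiol replicate 2 or 3, or soy replicate 1 or 3 (0.0526 to 0.0852). For Clec4a3 it failed without casein replicate 1 or 3, casein with estradiol replicate 1 or 2, soy replicate 1 or 3, or replicate 1 of soy with estradiol (0.0533 to 0.102). For Tyrobp it failed without any of 10 arrays (0.0520 to 0.121) and held, among single arrays left out, for replicate 2 of soy and replicate 3 of soy with estradiol. Cd68 gave 0.55 (adjusted p = 0.0760), and without soy with estradiol replicate 3 it was 0.65 and called (0.0396). The interaction was 0.54 for Adgre1 (adjusted p = 0.467), 0.43 for Csf1r (0.241), 0.43 for Lyz2 (0.390) and −0.20 for Aif1 (at) (0.287). Csf1 gave −0.67 (adjusted p = 0.0284), no longer called without casein replicate 2 (0.0644) or 3 (0.0820), casein with estradiol replicate 1 (0.0759) or 3 (0.0634), or soy replicate 1 (0.0644). Sirpa, the inhibitory receptor, gave −0.51 (adjusted p = 0.0222), no longer called without casein replicate 2 or 3, casein with estradiol replicate 1 or 3, or soy replicate 1 or 3 (0.0513 to 0.0644). Stab1, the scavenger receptor, gave 0.55 (adjusted p = 0.0422), which failed without any of 9 arrays (0.0570 to 0.111) and held without replicate 2 of soy or replicate 1 or 2 of soy with estradiol.

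**Figure D3:**
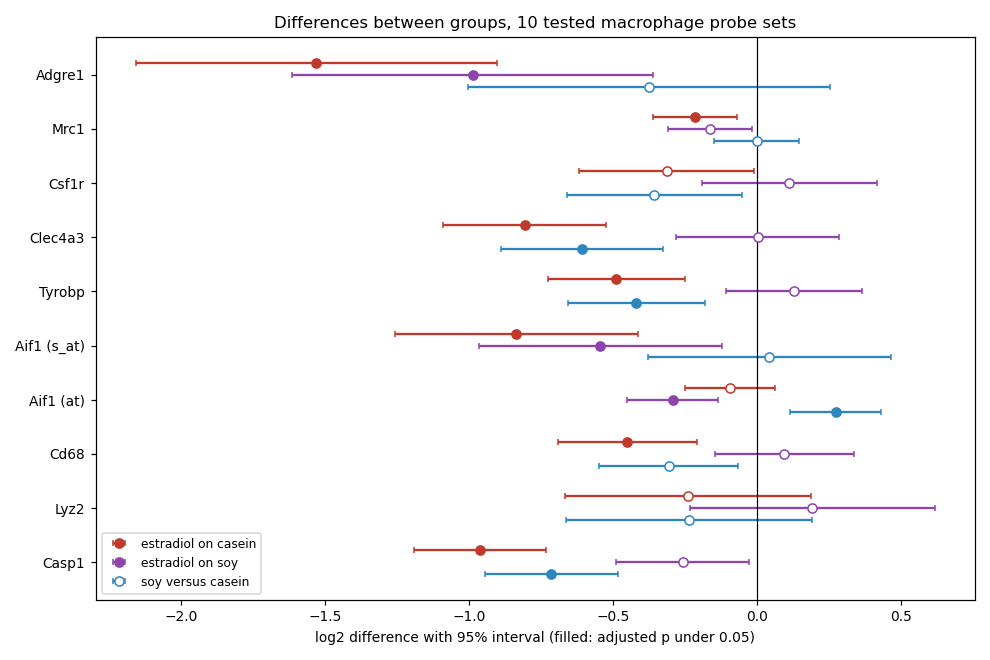
Log2 difference (horizontal axis) of each tested macrophage probe set for estradiol on casein, estradiol on soy and soy against casein, with 95% intervals as lines and filled points where called. Adgre1 and Aif1 (s_at) are lower with estradiol on both diets, and Clec4a3, Tyrobp, Cd68 and Casp1 lie to the left on casein and near 0 or just under it on soy.

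Under estradiol the diets could not be separated in these genes. Soy with estradiol minus casein with estradiol ran from −0.01 to 0.34 over the 10 tested probe sets, with a median of 0.18 against 0.01 over all probe sets. No probe set among the 10 was called, none had an unadjusted p under 0.05 in limma, and the smallest adjusted p was 0.393. Over all probe sets 0.0046% were called. For every one of the 10 the groups overlapped, while 14.5% of all tested probe sets did not overlap.

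Other macrophage markers were counted in the same way. Of 29 listed genes 22 had a probe set and 14 were tested. On casein 9 fell and 1 rose with estradiol, with a median of −0.36, and on soy 4 fell and 1 rose, with a median of −0.11. Of all tested probe sets 19.9% fell and 21.9% rose on casein, and 24.3% fell and 25.3% rose on soy. The casein count of 10 was 5 without casein with estradiol replicate 1. Fcgr1a, an activating Fc receptor, fell by 0.90 on casein (adjusted p = 0.000627) and by 0.50 on soy (adjusted p = 0.0131), the second no longer called without soy with estradiol replicate 1 (0.0538). Pf4, a chemokine of platelets and resident macrophages, fell by 0.71 on casein (adjusted p = 0.000428) and by 0.37 on soy (adjusted p = 0.0129), the second no longer called without soy replicate 2. Fcgr3a fell by 0.51 on casein (adjusted p = 0.00134) and by 0.31 on soy (adjusted p = 0.0159). Stab1, a scavenger receptor, fell by 0.45 on casein (adjusted p = 0.00280), and its difference on soy was 0.10 (adjusted p = 0.367). Cx3cr1, the fractalkine receptor, fell by 0.62 on soy (adjusted p = 0.000273). Its mean on casein also went down with estradiol, from 7.50 to 7.21, and its interaction was not called (adjusted p = 0.164 in limma). Mpeg1, a pore-forming protein of phagocytes, rose on both diets, by 0.54 (adjusted p = 0.00831) and 0.65 (adjusted p = 0.00265). For soy against casein 1 of the 14 was called, against 9.73% of all tested probe sets. This was Stab1 at −0.33 (adjusted p = 0.0419). The call ended without casein replicate 1, 2 or 3, casein with estradiol replicate 1, 2 or 3, or soy replicate 1 or 3 (0.0551 to 0.160).

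Markers of other cells also differed between these arrays. The mean of 11 spermatid genes was 13.03 to 13.13 in casein and 13.02 to 13.11 in soy. It was 12.55, 12.42 and 11.89 in casein with estradiol and 12.13, 12.42 and 12.68 in soy with estradiol. The lowest array of each estradiol group was thus also its lowest in Adgre1 and in Aif1 (s_at). Without both of these arrays Adgre1 fell by 1.20 on casein (adjusted p = 3.74e-05) and by 0.63 on soy (adjusted p = 0.00120). Aif1 (s_at) then fell by 0.56 and 0.38 (adjusted p = 0.000339 and 0.00319). The estradiol arrays that remained read 12.42 to 12.68 in the spermatid mean, under every array without estradiol. Leaving out the pair thus cannot separate these falls from the spermatid difference. The mean of 9 Leydig cell genes was 9.53 to 9.69 in the groups without estradiol and 8.93 to 9.27 in those with it. The mean of 11 Sertoli cell genes was 8.86 to 8.88 in casein, 9.26 to 9.53 in casein with estradiol, 8.75 to 8.81 in soy and 9.34 to 9.56 in soy with estradiol. Of these genes 7 rose and 1 fell with estradiol on casein, and 10 rose and 0 fell on soy. Among all tested probe sets 21.9% rose and 19.9% fell on casein, and 25.3% rose and 24.3% fell on soy. The mean of 6 endothelial genes was 6.34 to 6.49 in casein, 6.21 to 6.28 in casein with estradiol, 6.22 to 6.36 in soy and 6.21 to 6.28 in soy with estradiol, so its highest group was casein, as for Clec4a3, Tyrobp, Cd68 and Casp1. Of these 6 genes 1 was called on casein, Tek, a receptor of the vessel lining, which fell by 0.26 (adjusted p = 0.0132), and 0 on soy or between the diets. The call of Tek was lost without casein with estradiol replicate 1 (0.0519). Kdr, a receptor for vascular endothelial growth factor, gave −0.28 on casein (adjusted p = 0.0656), and without replicate 1 or 2 of soy with estradiol it was called (0.0345 and 0.0348). Adipose genes, 7 in number, ran from 5.78 to 6.02 in casein and up to 7.32 elsewhere. Of the neutrophil genes 0 of 4 passed the filter, of the T and NK cell genes 6 of 10. The part of these cell types in the macrophage results was not tested.

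**Figure D4:**
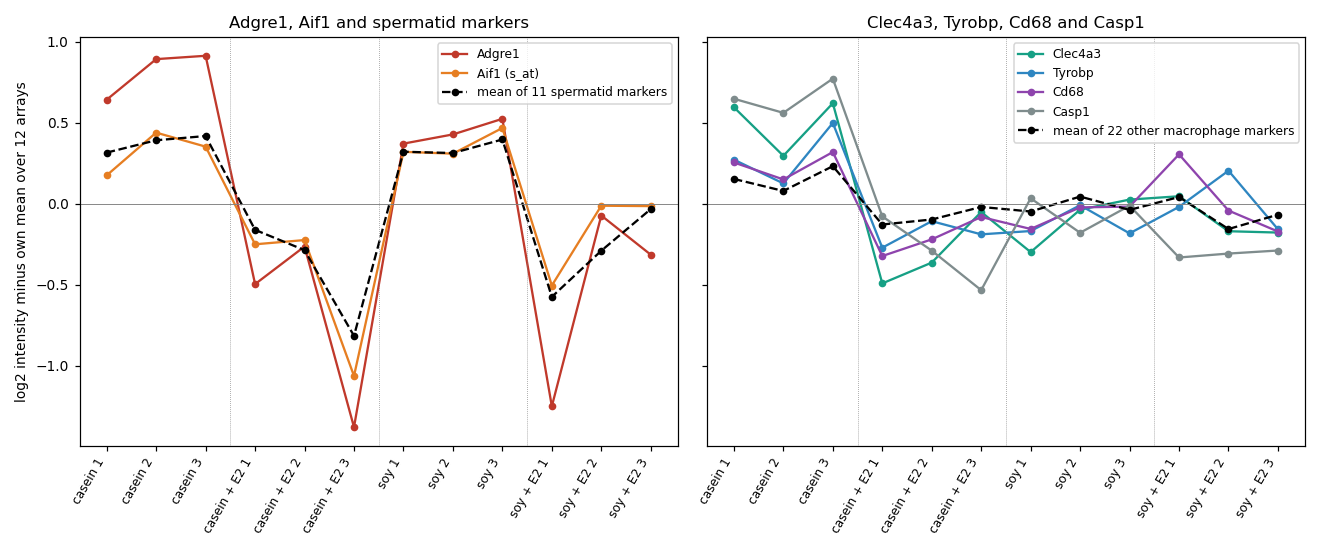
Profiles over the 12 arrays (horizontal axis) (E2, estradiol) of 6 macrophage probe sets and, dashed, of the mean of 11 spermatid markers and of 22 other macrophage markers, each as log2 intensity minus its own mean (vertical axis). Adgre1 and Aif1 (s_at) dip where the spermatid list dips, and Clec4a3, Tyrobp, Cd68 and Casp1 are raised in the casein arrays.

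Genes with the nearest profiles were found by the root mean square difference of mean-centred log2 values over the 12 arrays, among 11776 other genes. For Adgre1, whose own deviation from its mean was 0.74, they were Cimip3 (0.102), Ankrd60 (0.117) and Cep350 (0.125). The spermatid gene Prm2 ranked 89, ahead of Aif1 at 372 and of Fcgr1a, the nearest other macrophage marker, at 379. For Aif1 (s_at) they were C7h12orf54 (0.0631), 1700013G24Rikl (0.0664) and Cdv3 (0.0692), and the spermatid gene Acrv1 ranked 48. Fcgr1a, again the nearest other macrophage marker, ranked 226, and Casp1, the nearest of the macrophage genes followed here, ranked 2855. Cd68 had C1qc, a subunit of the first complement component made by macrophages, as its nearest gene of all (0.0897), then Reep5 and Tpd52l1. Clec4a3 had Fcna (0.130), a ficolin, Acp5 (0.142), a lysosomal acid phosphatase, and Gpx1 (0.168), and Cd68 ranked 11. Casp1 had Wdfy4 (0.118), Nr1h3 (0.144) and Ptprm (0.147). Tyrobp had Mcee, Sema3g and Dnajc5, with C1qc at rank 76. Mrc1 had Rusf1, Vwa1 and Adck1, with Folr2 at rank 158, and Aif1 (at) had Adarb1, Ubtd2 and Gsg1l. These likenesses are descriptions over arrays that share the same 4 groups.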

How the data were processed

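Total RNA of whole testes was turned into biotin-labelled aRNA and read on Affymetrix rat arrays, 12 in 4 groups of 3, per the labels' protocols. Each deposited value is a log2 intensity of a probe set, a scale read from the values themselves. GCOS, the Affymetrix operating software, is named without a version per the submitters' processing notes. How background, probe summaries and scaling were handled upstream is not given in the sources used here. All 12 columns of the 31099 probe sets were used.

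The lower quartiles, medians and upper quartiles of the arrays differed by up to 0.164, 0.0691 and 0.183 log2, over the trigger of 0.15, so the arrays were quantile-normalized. The 57 control probe sets and the 30% with the lowest means were then left out. By the platform annotation 20832 probe sets had 1 symbol, 436 several and 9831 none, and a gene of a list was read by its probe set with the highest mean. A single linear model was fitted to all arrays with limma 3.58.1 in R 4.3.3 (lmFit, eBayes with trend, 8 residual degrees of freedom), and p-values were adjusted by Benjamini-Hochberg over the 21729 probe sets tested. The median standard error of a difference was 0.0923 (interaction 0.131), a precision limited by how few arrays there are. With 3 against 3, the smallest two-sided p of an exact permutation test is 0.1. The procedure was tested on simulated data.

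Every macrophage probe set is named, with up to 4 genes of each list by smallest unadjusted p in a comparison and the 3 nearest profiles of each gene with a called probe set. The members, lists and rules were chosen with earlier results of these data known. Alternatives were the deposited values, median centring, other filters, eBayes without trend, the replicate number as a block, each array left out in turn, and 2 pairs of arrays left out. Each pair held soy with estradiol replicate 1. Its partner was casein with estradiol replicate 3 in the pair lowest in spermatid markers, and casein with estradiol replicate 2 in a pair in which an earlier reading of these data saw transcripts of other tissues. The adipose mean was 7.11 and 6.92 in that second pair (replicate 2, then replicate 1), but higher in soy with estradiol replicate 3 (7.32) and soy replicate 2 (7.30), which were left out singly. Same-numbered arrays did not deviate together in most pairs: the correlation of their deviations passed 0.1 in 2 of 12 pairs, at 0.129 and 0.352. The lowest was −0.361. The numbers were thus not taken to pair the samples.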

Additional observations from a re-analysis of the deposited data

Results flagged for a closer look

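The estradiol difference was called as unequal on the 2 diets for 7 of the genes named, by the interaction term in limma. Of all tested probe sets 3.41% were called. Genes of the lists were named by smallest p, so the 7 are not a share. Each of these calls was lost without some single arrays, as given for each gene. Casp1 was tested only through its high casein arrays. The estradiol difference was larger by 0.81 log2 on soy than on casein for Clec4a3, by 0.62 for Tyrobp and by 0.70 for Casp1. A positive value here means a smaller fall on soy or none. Stab1 gave 0.55. For Csf1 it was −0.67, a rise on casein and a fall on soy. Sirpa gave −0.51, and RT1-Ba, an MHC class II chain, gave −0.66 (adjusted p = 0.0244). Single values were not screened for outlying arrays, since each group holds 3.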

How the results depend on the processing

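The falls with estradiol on casein of Adgre1, Clec4a3, Tyrobp, Aif1 (s_at), Cd68 and Casp1 were called in each alternative that tested them. The macrophage count on casein was 3 with the 50% filter. Leaving out 1 array at a time gave macrophage counts of 1 to 4 on soy, 1 to 5 for soy against casein and 0 to 4 for the interaction, and the 50% filter gave 0 for both of the last comparisons. Without both arrays lowest in spermatid markers 1 interaction call was left.

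Over all probe sets the 2114 calls of soy against casein were 3934 on deposited values, 4566 after median centring and 1236 with the 50% filter, and 1000 to 2819 with 1 array left out. Under estradiol the 1 call was 0 with the 50% filter, the replicate block or without both spermatid-low arrays, 707 without the other pair, and 0 to 373 with 1 array left out. The 741 interaction calls were 1244 after median centring, 434 with the 50% filter, 393 with the replicate block and 247 without both spermatid-low arrays, and 156 to 1049 with 1 array left out.

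The replicate block ended the interaction call of Tyrobp (adjusted p = 0.0693) and the soy call of Aif1 (at) (0.0586), and no other call of the 11 macrophage probe sets. It also ended the interaction call of Stab1 (0.0643), as did testing without the filter (0.0543). The Tyrobp interaction also missed the threshold on deposited values (0.0574) and without the filter (0.0589).

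Differences near 0 changed sign and were called on neither side. With 1 array left out, the estradiol difference on soy ran from −0.0952 to 0.0674 for Clec4a3, from −0.0416 to 0.197 for Cd68 and from −0.0775 to 0.335 for Lyz2. That of soy against casein ran from −0.0303 to 0.0328 for Mrc1 and from −0.0306 to 0.103 for Aif1 (s_at). For Clec4a3 with estradiol on soy these were −0.0489 (deposited), −0.0637 (median centring), −0.0952 (without soy replicate 1), −0.0704 (without soy with estradiol replicate 1), −0.0703 and −0.0701 (without either pair). Without soy with estradiol replicate 1 or either pair, Cd68 gave −0.0416, −0.0419 and −0.0418, and Lyz2 gave −0.0775, −0.0776 and −0.0773. For soy against casein Mrc1 gave 0.0328, 0.0166 and 0.0127 without casein replicate 3, soy replicate 1 and soy replicate 2. Aif1 (s_at) gave −0.0161 (deposited), −0.0443 (median centring), −0.0306 (without casein replicate 1) and −0.00813 (without soy replicate 3). The cause was not tested.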

Other observations

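Macrophages also present antigen, and the genes of that pathway did not share 1 direction. Of 6 tested genes 1 fell with estradiol on casein, and on soy 2 rose and 1 fell. Over all tested probe sets 19.9% fell on casein, and on soy 25.3% rose and 24.3% fell. Cd74, the invariant chain of MHC class II, read 8.20, 8.37 and 8.43 in soy and 10.15, 8.61 and 9.72 in soy with estradiol, a rise of 1.16 log2 (adjusted p = 0.00476 in limma). RT1-Da, an MHC class II chain, rose by 0.76 on soy (adjusted p = 0.0138). It was no longer called without replicate 1 of soy (0.0660) or of soy with estradiol (0.0548), the second being the array with the highest mean of pan-leukocyte genes. RT1-Bb fell by 0.70 on casein (adjusted p = 0.00111), and RT1-Ba fell by 0.45 on soy (adjusted p = 0.00208). The interaction of RT1-Ba was −0.66 (adjusted p = 0.0244), no longer called without casein replicate 2 (0.0603) or 3 (0.0651), casein with estradiol replicate 1 (0.0756) or soy replicate 1 (0.0583). RT1 genes have near-identical copies that a probe set can share, so their values are uncertain.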
